A study of Mus musculus with 8 samples.

Results

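The 6 transcripts described here, Adipoq, Cfd, Retn, Lep, Plin1 and Cidea, are markers of fat cells, and they were read out in RNA from a dissected muscle. They were chosen as rows of the deposited expression table by gene symbol, and all 6 of 6 symbols were found among 54091 gene rows. The muscle was white quadriceps, rich in fast glycolytic fibres, with 1 RNA-seq library for each of 8 mice. They were males of 11 to 14 weeks, all after a 14 h overnight fast. Of these, 4 mice (Acot2 muscle knockout, replicates 5 to 8) carried Cre recombinase under the CKM (muscle creatine kinase) promoter, which acts in striated muscle fibres, and were labelled as lacking Acot2 in muscle. The other 4 (floxed control, replicates 1 to 4) were labelled Loxp/Loxp. Each title carries its own mouse number, so the libraries were taken as separate animals. Mice with Cre and no floxed allele were not analysed here, so Cre and the loss of Acot2 cannot be told apart.

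Fat cells lie between muscle fibres and in the fascia around a muscle, and a piece of dissected muscle can hold some of them. Adiponectin (Adipoq), adipsin (Cfd, complement factor D), resistin (Retn) and leptin (Lep) are proteins that fat cells secrete. Perilipin 1 (Plin1) coats the fat cell's lipid droplet and gates the access of lipases to it, and Cidea helps lipid droplets to fuse and is best known from brown fat. In mice these genes are used as markers of fat cells because muscle fibres express most of them little or not at all. In bulk RNA, fewer cells of a type and less RNA per cell cannot be told apart, so the values below are transcript levels and not counts of fat cells.

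The starts of 3 of these genes are shown because their transcripts moved together across the mice, as described below. Each sequence holds the 250 bases before the annotated start, read 5′ to 3′ on the gene's strand, from RefSeq on GRCm38.p6. Capitals mark a match, on either strand, to CCAAT, the box that NF-Y and other factors can bind. Both strands were also searched for AGGTCA, the core letters that nuclear receptors such as PPARG recognise, and for TATAA, the core of the TATA box. Adipoq lies at chr16:23146286-23146535, Cfd at chr10:79890603-79890852 and Retn at chr8:3655520-3655769, all on the plus strand.
Adipoq: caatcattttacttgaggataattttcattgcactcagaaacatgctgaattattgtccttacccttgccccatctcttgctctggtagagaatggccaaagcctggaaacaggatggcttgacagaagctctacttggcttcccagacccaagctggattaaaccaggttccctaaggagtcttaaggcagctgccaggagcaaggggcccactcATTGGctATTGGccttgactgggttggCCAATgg
Cfd: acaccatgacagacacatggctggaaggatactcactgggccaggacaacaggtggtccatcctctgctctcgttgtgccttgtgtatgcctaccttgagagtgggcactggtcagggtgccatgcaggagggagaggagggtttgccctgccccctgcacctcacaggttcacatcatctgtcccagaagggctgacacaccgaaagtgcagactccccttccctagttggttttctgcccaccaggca
Retn: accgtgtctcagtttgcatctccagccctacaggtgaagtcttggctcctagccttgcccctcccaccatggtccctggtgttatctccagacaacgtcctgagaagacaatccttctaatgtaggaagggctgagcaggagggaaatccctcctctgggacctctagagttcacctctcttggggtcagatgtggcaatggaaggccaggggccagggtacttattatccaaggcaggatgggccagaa
Adipoq had 3 matches to CCAAT, which began 34, 27 and 7 bases before the start and did not overlap, and Cfd and Retn had 0. A match is only a run of letters and no evidence of binding, and no match says only that these letters are not in the window. None of these 3 windows held AGGTCA or TATAA. Of the 32851 windows of this length in the RefSeq table, 33.8% held CCAAT, 14.0% held AGGTCA and 22.8% held TATAA. The window of Plin1 overlaps an annotated exon and is not shown.

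Reads on genes ranged from 28659633 to 40977866 per library, and 13141 genes had a mean of at least 10 normalized counts and were tested. Values are the authors' normalized counts, which are read counts divided by 1 size factor per library. Acot2 was at 413, 312, 600 and 543 normalized counts in knockouts 5 to 8, against 1675, 3927, 2492 and 1530 in floxed controls 1 to 4. The knockouts all lay below every floxed control, with a difference of -2.30 on the log2 scale (exact two-sided permutation p = 0.0286, the smallest that 4 against 4 allows). Over all tested genes Acot2 missed the threshold (limma adjusted p = 0.087). Fast glycolytic fibre markers summed to between 2454370 and 4223770 normalized counts in the knockouts and between 3367540 and 4310560 in the floxed controls, and Myh4, the fast glycolytic myosin, led them in every library. Lymphocyte markers summed to at most 3.72 in the knockouts and at most 3.13 in the floxed controls, and 2 of 4 skin keratinocyte markers were at 0 in every library.

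All 4 of Adipoq, Cfd, Retn and Plin1 were lowest in the same mouse, floxed control 1, and all had their highest level in either knockout 7 or floxed control 3. Adipoq (gene ID 11450, chromosome 16, 23146536 to 23158028 in GRCm38) encodes the hormone adiponectin. It was at 119.9, 39.2, 188.1 and 46.0 normalized counts in knockouts 5 to 8, against 11.8, 79.2, 187.7 and 95.1 in floxed controls 1 to 4. The groups overlapped, with 1 of 4 knockouts, replicate 7, marginally above every floxed control.

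Cfd (gene ID 11537, chromosome 10, 79890853 to 79892655) encodes a protease of the alternative complement pathway. It was at 916, 473, 1274 and 353 normalized counts in knockouts 5 to 8, against 133, 584, 1320 and 562 in floxed controls 1 to 4. All 4 knockouts lay within the range of the floxed controls. Retn (gene ID 57264, chromosome 8, 3655770 to 3660110), a cysteine-rich hormone of mouse fat cells, was at 23.4, 5.45, 46.5 and 2.42 normalized counts in knockouts 5 to 8. In floxed controls 1 to 4 it was at 2.14, 32.2, 38.6 and 14.2. The lowest values of Retn, in knockout 8 and floxed control 1, rest on 2 reads each.

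Plin1 (gene ID 103968, chromosome 7, 79720218 to 79732903, minus strand) was at 112, 21.8, 97.8 and 23.0 normalized counts in knockouts 5 to 8, against 17.2, 40.9, 183 and 46.2 in floxed controls 1 to 4. The groups overlapped here too, and knockouts 5 and 7 stood apart from knockouts 6 and 8. The same split of the knockouts held for Adipoq, Cfd and Retn, for which replicates 5 and 7 were the 2 highest of the 4.

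Lep (gene ID 16846, chromosome 6, 29060220 to 29073877), the satiety hormone whose level in fat falls with fasting, was close to absent. It had 2 reads in knockout 5, 1 in knockout 7 and 8 in floxed control 2, and 0 reads in the other 5 libraries. A count of 0 allows up to 3 reads, which is 3.27 and 3.63 normalized counts in knockouts 6 and 8 and 3.22, 3.13 and 2.67 in floxed controls 1, 3 and 4. These limits cover counting error only. Lep was the only one of the 6 that failed the filter on low values, and it was not part of the fit across genes.

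Cidea (gene ID 12683), which promotes droplet fusion, followed another order. It was at 54.1, 21.8, 78.2 and 42.4 normalized counts in knockouts 5 to 8, against 50.4, 31.3, 51.1 and 16.0 in floxed controls 1 to 4. Floxed control 1, the lowest for the other 4 detected genes, ranked 4 of 8 for Cidea, while floxed control 4 was the lowest. The groups overlapped, with 2 of 4 knockouts above every floxed control. The gene overlaps B430212C06Rik, on the other strand, by 500 bases, and the sources used here do not say whether counting used the strand. B430212C06Rik itself was at 0.901 to 3.27 normalized counts in the knockouts and at most 1.04 in the floxed controls.

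**Figure D1:**
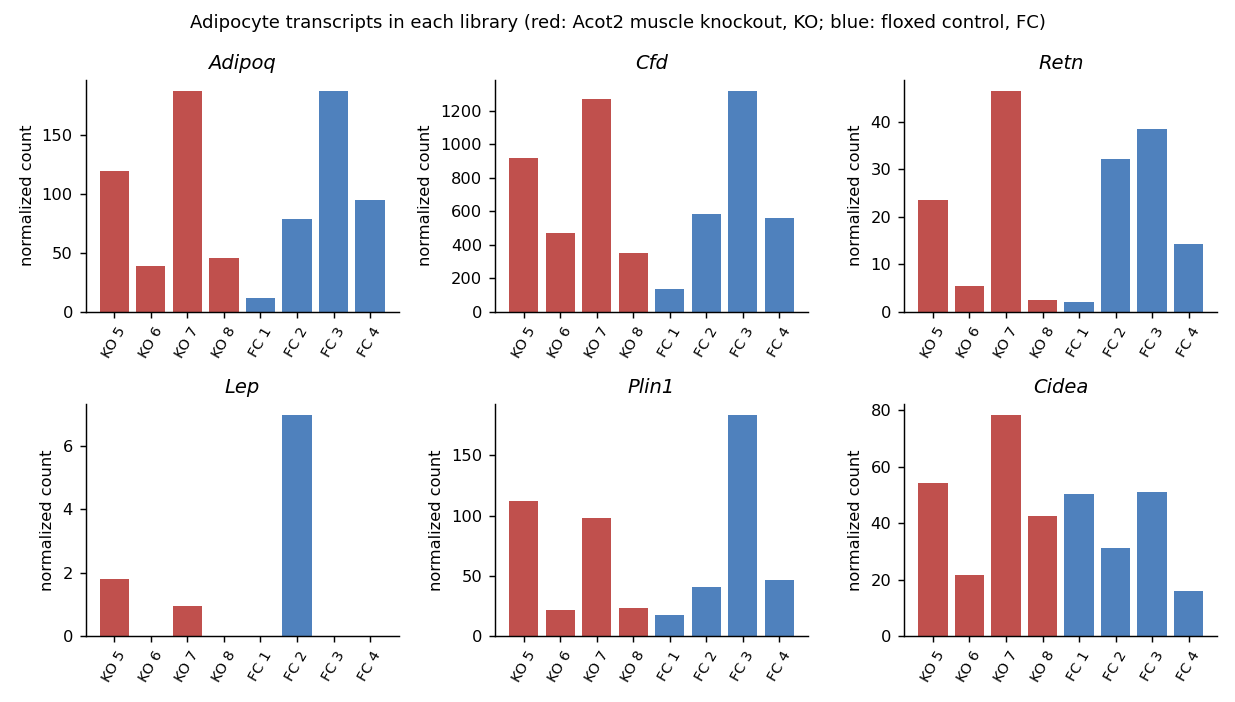
Normalized counts (y axis, linear from 0, own scale per panel) of the 6 adipocyte transcripts in each library, with knockouts (KO, red) left of floxed controls (FC, blue). Adipoq reaches 188 in KO 7 and 11.8 in FC 1, and Cidea reaches 78.2 in KO 7 and 50.4 in FC 1.

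Per kilobase of annotated exon, Cfd was the most abundant of the 6, with a mean of 761 normalized counts per kilobase over the 8 libraries. Adipoq followed at 69.4, Cidea at 38.7, Plin1 at 14.6, Retn at 13.1 and Lep at 0.361 normalized counts per kilobase. The lowest library of Cfd (144) lay above the highest library of Adipoq (136). From Adipoq to Retn the ranges of neighbours overlapped, with 8.54 to 136 for Adipoq, 14.3 to 70.1 for Cidea, 3.69 to 39.5 for Plin1 and 1.36 to 29.5 for Retn.

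The spread between mice was wide within each genotype. The highest library exceeded the lowest by 15.9 times for Adipoq (95% counting interval 8.72 to 32.5), by 9.93 times for Cfd (8.25 to 12.0) and by 10.7 times for Plin1 (6.41 to 19.1). For Retn the ratio was 21.7, with an interval of 5.70 to 184 because the lowest library holds 2 reads, and for Cidea it was 4.89 (2.91 to 8.65). These intervals are exact and conditional on the reads of both libraries, and they cover counting error only. Among the knockouts alone the highest library exceeded the lowest by 4.80 times for Adipoq, and among the floxed controls by 15.9 times. For Cfd the same ratios were 3.60 in the knockouts and 9.93 in the floxed controls, and for Plin1 5.13 in the knockouts and 10.7 in the floxed controls. Retn had ratios of 19.2 in the knockouts and 17.99 in the floxed controls, and Cidea 3.59 in the knockouts and 3.19 in the floxed controls. Without floxed control 1, the ratio over the other 7 libraries was 4.80 for Adipoq, 3.73 for Cfd, 19.2 for Retn and 8.42 for Plin1.

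On the log2 scale, the SD between mice of the same genotype was 1.40 for Adipoq, 1.14 for Cfd, 1.70 for Retn, 1.32 for Plin1 and 0.76 for Cidea. The median over all 13141 tested genes was 0.22, and 2.29% of them had an SD over 1. Among the 7813 tested genes whose mean lay between those of Retn and Cfd, the median was 0.25 and 1.57% had an SD over 1. Of all tested genes, 25 had a larger SD than Retn, 62 than Adipoq, 77 than Plin1, 153 than Cfd and 815 than Cidea. The counts of the 5 genes are a description, since they were chosen with earlier results of these data known.

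**Figure D2:**
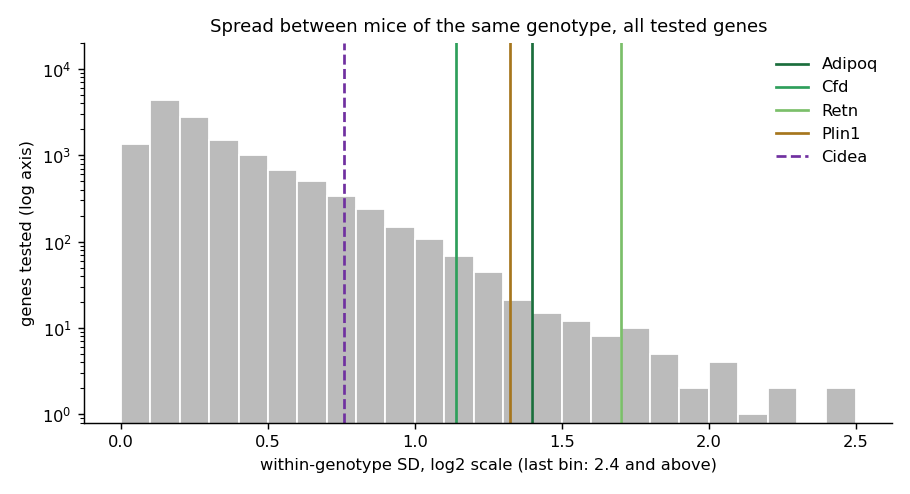
Distribution of the within-genotype SD (x axis, log2 scale) over 13141 tested genes (grey bars, number of genes on a log axis), with coloured lines at the values of 5 adipocyte transcripts. The lines of Cfd (1.14), Plin1 (1.32), Adipoq (1.40) and Retn (1.70) lie in the right tail, and Cidea lies at 0.76.

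Adipoq, Cfd, Retn and Plin1 varied together across the 8 mice. Of the 15 pairs that the 6 genes form, the 6 pairs among these 4 had a Pearson r between 0.864 and 0.978, and all 6 passed an exact permutation test of the pairings with Benjamini-Hochberg adjustment over the 15 pairs (adjusted p between 0.00298 and 0.0259). Spearman's rho ran from 0.810 to 0.952, with adjusted exact p between 0.00837 and 0.0544. The closest pair was Adipoq and Cfd, with r = 0.978 (adjusted exact p = 0.00298) and rho = 0.929 (adjusted exact p = 0.00837). The loosest of the 6 pairs was Retn and Plin1, with r = 0.864 (adjusted exact p = 0.0259) and rho = 0.810 (adjusted exact p = 0.0544).

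The relation was as close after each genotype was centred on its own mean, where r ran from 0.867 to 0.982 in the 6 pairs. The adjusted permutation p ran from 0.00279 to 0.0227. It is not exact, since centred values were permuted across genotypes. Without the 2 mice farthest from the median of the first gene of a pair, r ran from 0.775 to 0.984. The mouse numbers fall into 2 ranges. Among the 6 mice of the larger range r was 0.857 to 0.975, and 5 of 6 pairs passed, while the smaller range holds 1 mouse per genotype and gives no value. Retn and Plin1 was the exception there (adjusted exact p = 0.0903), and it also missed the threshold without floxed control 1 (0.0665) and without floxed control 4 (0.0873). By Spearman's rho (0.714 to 0.943) no pair passed among those 6 mice (adjusted exact p between 0.0833 and 0.292). Without the 2 farthest mice, r in that range fell to between 0.368 and 0.977. The 4 genes share each library's size factor and depth. Reads on genes numbered 33658691 in knockout 7 and 32282222 in floxed control 3, the highest for these transcripts, and 32748272 in floxed control 1, the lowest.

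A ratio of 2 genes within a library does not depend on the library's scale. The ratio of Cfd to Adipoq varied by 2.04 times over the 8 libraries, that of Plin1 to Adipoq by 2.99 times and that of Retn to Adipoq by 7.73 times, while Adipoq itself varied by 15.9 times. The ratio of Cidea to Adipoq varied by 25.4 times, which rests on floxed control 1. It was 4.27 there, where Adipoq had 11 reads, and between 0.168 and 0.921 in the other libraries.

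Cidea had no pair that passed. With Adipoq, Cfd, Retn and Plin1 its r was between 0.209 and 0.426 and its adjusted exact p between 0.553 and 0.708 over the same 8 libraries. Spearman's rho was between 0.476 and 0.571, with adjusted exact p between 0.313 and 0.331. Without the 2 mice farthest from the median of the other gene, r with Cidea was between 0.266 and 0.761. Whether the pairs with Cidea differ from the 6 pairs above was not tested. The 5 pairs with Lep had r between 0.131 and 0.536 and adjusted exact p between 0.344 and 0.762, with 11 reads of Lep in all.

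**Figure D3:**
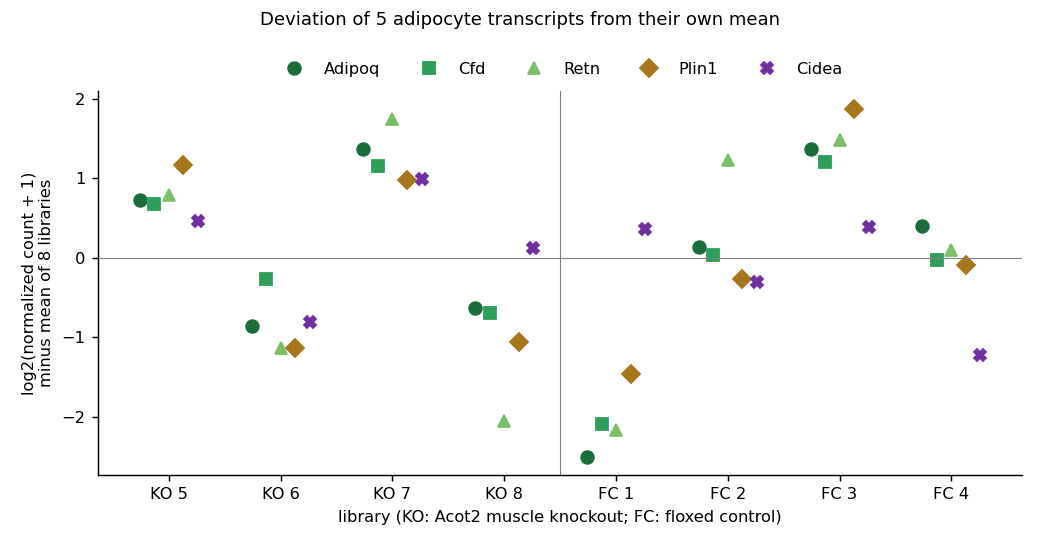
Deviation of 5 adipocyte transcripts from their mean over the 8 libraries (y axis, log2 of normalized count plus 1), with knockouts (KO 5 to 8) left of floxed controls (FC 1 to 4). Adipoq, Cfd, Retn and Plin1 lie together above 0 in KO 5, KO 7 and FC 3 and below 0 in KO 6, KO 8 and FC 1, where Cidea lies apart from them in KO 8 and FC 1.

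No difference between the genotypes was found for any of the 6 transcripts. Of the 5 that were tested, 0 passed an adjusted p of 0.05 (limma with Benjamini-Hochberg adjustment over 13141 genes), as did 0 of all tested genes (0%). By sign alone, 3 of the 5 (Adipoq, Cfd and Cidea) were higher in the knockouts, against 50.6% of all tested genes. At an unadjusted p under 0.05 there were again 0 of the 5, against 810 of all tested genes (6.16%). Of these 810, 324 were higher and 486 lower in the knockouts, and with equal library totals, which moved the median of all genes to 0.044, the split was 491 higher and 246 lower. With voom on the recovered reads 0 genes passed and 756 had an unadjusted p under 0.05. The groups overlapped in all 5, and in 2.75% of all tested genes they did not.

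The intervals of the differences were wide. Adipoq averaged 98.3 ± 70.1 normalized counts in knockouts and 93.4 ± 72.5 in floxed controls (SD, n = 4 each), and its difference on the log2 scale was 0.30 with a 95% interval from -1.34 to 1.95 (limma adjusted p = 0.929). Cfd averaged 754 ± 423 in knockouts and 649.6 ± 493 in floxed controls (SD, n = 4 each), a difference of 0.44 on the log2 scale (-0.89 to 1.77, limma adjusted p = 0.871). Retn averaged 19.5 ± 20.3 in knockouts and 21.8 ± 16.7 in floxed controls, a difference of -0.32 (-2.41 to 1.76, limma adjusted p = 0.944). Plin1 averaged 63.6 ± 47.9 in knockouts and 71.9 ± 75.4 in floxed controls, a difference of -0.03 (-1.61 to 1.54, limma adjusted p = 0.993). Cidea averaged 49.1 ± 23.5 in knockouts and 37.2 ± 16.8 in floxed controls, a difference of 0.39 (-0.59 to 1.36, limma adjusted p = 0.849). The exact two-sided permutation p was 0.8 for Adipoq, 0.714 for Cfd, 0.83 for Retn, 1 for Plin1, 0.457 for Cidea and 1 for Lep (4 mice per group). These intervals leave room for a change of more than 2 times in either direction for Adipoq, Retn and Plin1.

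The direction of 4 of these differences depended on single mice. Without floxed control 1, Adipoq was at -0.48 and Cfd at -0.19, and without knockout 7 Adipoq was at -0.10. Plin1 was at 0.34, 0.32 and 0.59 without knockout 6, knockout 8 or floxed control 3, and Retn at 0.00045, 0.31, 0.032 and 0.12 without knockout 6, knockout 8, floxed control 2 or floxed control 3. Cidea was higher in the knockouts without any 1 mouse, at 0.043 to 0.72. The count of 810 genes was 2201 without knockout 5, 426 without knockout 6, 463 without knockout 8, 519 without floxed control 1 and 368 without floxed control 4.

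**Figure D4:**
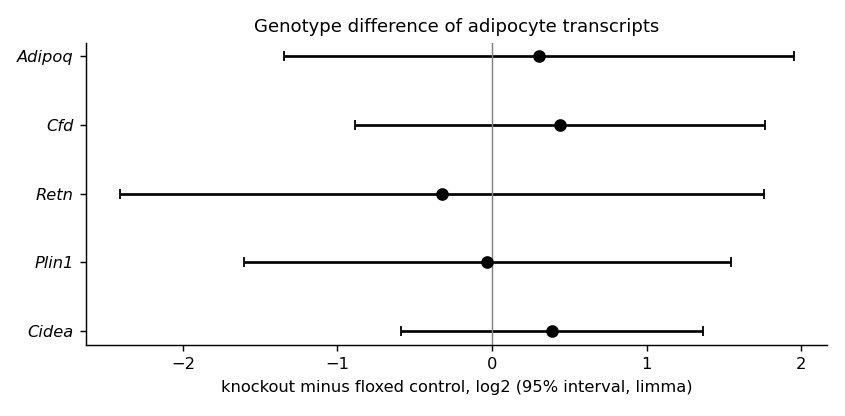
Difference between Acot2 muscle knockout and floxed control mice (x axis, log2 scale, above 0 when higher in knockouts) for 5 adipocyte transcripts, as the limma estimate with its 95% interval, 4 mice per group. Every interval spans 0, and Retn has the widest, from -2.41 to 1.76.

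Other genes that are largely restricted to fat cells were compared with the 4 transcripts. Of 16 genes in this list 10 passed the filter, and 6 of these 10 had an r of at least 0.7 with the mean of Adipoq, Cfd, Retn and Plin1 over the 8 libraries, against 3.75% of all tested genes. The median r was 0.77 in the list and -0.02 over all tested genes. These r are descriptions without a p, since the genes share libraries and the lists were drawn up with results known. Cidec, a droplet protein of white fat from the family of Cidea, was at 296, 134, 252 and 114 normalized counts in knockouts 5 to 8, against 54.7, 176, 409 and 194 in floxed controls 1 to 4, with r = 0.966 and rho = 0.952. Pck1, whose enzyme helps to supply the glycerol backbone of triglyceride in fat, was at 278, 14.2, 310.0 and 43.6 in knockouts 5 to 8, against 33.2, 158, 429 and 303 in floxed controls 1 to 4, with r = 0.863 and rho = 0.857.

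The other 4 genes of the list at this level of r were Slc7a10 (0.885), Acvr1c (0.880), the glycerol channel gene Aqp7 (0.804) and Tusc5 (0.740). Of the 6, Cidec and Slc7a10 were lowest in floxed control 1, and Pck1, Acvr1c, Aqp7 and Tusc5 in knockout 6. Thrsp, a regulator of fat synthesis that was among the 3 most abundant of the list, had r = -0.354 and varied by 1.77 times over the libraries. By genotype, 5 of the 10 were higher and 5 lower in the knockouts, 0 were called, and the median difference was -0.04 on the log2 scale, against 0.0031 over all tested genes. The list's 2 smallest p belonged to Sncg (0.82, SE 0.344, limma adjusted p = 0.746) and Adig (0.39, SE 0.38, limma adjusted p = 0.83).

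Outside the 6 transcripts, the 5 tested genes most like the mean of the 5 detected adipocyte transcripts over the 8 libraries were B3galt2 (r = 0.989), Cyp2e1 (0.981), Rarres2 (0.979), Icosl (0.972) and Epb41l1 (0.966). They were picked for their r, so it is a description. B3galt2, a galactosyltransferase gene, was at 84.7, 17.4, 139 and 23.0 normalized counts in knockouts 5 to 8, against 7.50, 38.3, 142 and 40.0 in floxed controls 1 to 4. Cyp2e1, a cytochrome P450 gene, was at 601, 212, 843 and 208 in knockouts 5 to 8, against 124, 319, 894 and 426 in floxed controls 1 to 4. Rarres2, which encodes the secreted protein chemerin, followed the same mice over a narrow range, from 220.03 to 270.4 normalized counts in the knockouts and from 203 to 269 in the floxed controls.

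The transcription factors of fat cell differentiation split. Ebf1 (r = 0.912), Ebf2 (0.790) and Srebf1 (0.731) had an r of at least 0.7 with the mean of the 4 transcripts, and Klf15 (-0.895), Cebpd (-0.839) and Cebpb (-0.802) had an r of at most -0.7, against 3.45% of all tested genes at that end. Klf15, a factor that glucocorticoids and fasting induce, was at 3421 to 4819 normalized counts in the knockouts and 2964 to 5169.5 in the floxed controls. Pparg, the receptor that drives fat cell differentiation, was named after its values were seen and varied by 1.89 times, with 70.3, 46.8, 66.1 and 44.8 normalized counts in knockouts 5 to 8, against 71.8, 48.7, 84.5 and 63.1 in floxed controls 1 to 4. In floxed control 1, where Adipoq was lowest, Pparg was the second highest of the 8. By genotype 0 of 10 factors were called. In the knockouts 2 were higher and 8 lower, where 50.6% of all tested genes were higher. The median difference was -0.12 on the log2 scale. The smallest p belonged to Zfp423, at 213 ± 53.5 normalized counts in knockouts and 298 ± 31.3 in floxed controls (SD, n = 4 each), a difference of -0.52 (SE 0.182, limma adjusted p = 0.746), and to Cebpb, at -0.31 (SE 0.152, limma adjusted p = 0.746).

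Among lipid genes that fat and muscle both use, 4 of 20, all tested, had an r of at least 0.7 with the mean of the 4 transcripts, against 3.75% of all tested genes. The median r was 0.25, against -0.02 over all tested genes. Those 4 were the desaturase gene Scd1 (0.904), the fatty acid binding protein gene Fabp4 (0.846), the lipase gene Lipe (0.781) and G0s2 (0.728), an inhibitor of triglyceride lipase. The most abundant of the list, Plin4 (23222 normalized counts on average), Car3 (18360.3) and Lpl (13306), had r of -0.607, -0.071 and 0.221. By genotype 0 of 20 were called, and 17 were higher in the knockouts, against 50.6% of all tested genes. The median difference was 0.09 on the log2 scale. The smallest p were those of Cd36 (0.34, SE 0.169, limma adjusted p = 0.746) and Fasn (-0.31, SE 0.163, limma adjusted p = 0.746).

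Most brown fat genes were low. Of 10 genes 3 passed the filter, and Elovl3 and Lhx8 were at 0 in every library. Ucp1, the uncoupling protein of brown fat, had 1.86 normalized counts in knockout 7 and 0 in the other 7 libraries. Slc36a2, an amino acid transporter gene of fat, had r = 0.797 with the mean of the 4 transcripts, with 40.6, 5.45, 41.9 and 4.84 normalized counts in knockouts 5 to 8, against 12.9, 15.7, 38.6 and 28.4 in floxed controls 1 to 4. The other tested genes were Prdm16 (r = 0.621) and Dio2 (0.562). None of the 3 was called by genotype, and the median difference was -0.18 on the log2 scale.

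Receptors and partners of the secreted proteins were compared with the 4 transcripts in the same way. The adiponectin receptor genes Adipor1 and Adipor2 varied by 1.15 and 1.11 times over the 8 libraries, with r of -0.690 and -0.383, and Lepr, the leptin receptor gene, by 1.53 times, with r = 0.134. Jak2, the kinase of the leptin receptor, varied by 1.58 times, with r = -0.633. C3, the complement protein on whose pathway adipsin acts, was at 2358 to 3416 normalized counts in the knockouts and 1126 to 3984 in the floxed controls, lowest in floxed control 1. Of 11 tested genes 0 had an r of at least 0.7, against 3.75% of all tested genes. A list of this size cannot be told from that share. By genotype 0 were called, with 7 higher in the knockouts, against 50.6% of all tested genes. The median difference was 0.02 on the log2 scale. The smallest p were those of C3 (0.44, SE 0.300, limma adjusted p = 0.765) and Lepr (-0.21, SE 0.151, limma adjusted p = 0.772).

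Summed markers of progenitor, endothelial, mural, macrophage, Schwann, tendon and red cells spanned smaller ratios over the mice than the 6 adipocyte transcripts did. A sum mostly follows its most abundant genes, such as Cfd (702 on average) for the adipocyte transcripts and Gsn (29042) and Dcn (10191) for progenitors. Gsn and Dcn varied by 1.49 and 1.38 times, while Dpp4 and Pi16 of the same list varied by 4.69 and 4.56 times. The ratios of sums therefore do not rank the cell types by spread. Those of slow fibres spanned a larger one, as did those of neutrophils, whose lowest sum is the value of 1 read. The sum of the 6 adipocyte transcripts varied by 8.31 times over the 8 libraries, from 467 to 1685 in the knockouts and from 214 to 1781 in the floxed controls. Its lowest value, 214, was that of floxed control 1, and the next lowest was 467, in knockout 8. The sum of the 16 other adipocyte-restricted genes varied by only 2.91 times, less than those of macrophage (3.12) and red cell (4.78) markers. It was lowest in knockout 6. Markers of fibro-adipogenic progenitors, from which fat cells in muscle arise, varied by 1.46 times in sum, from 43381 to 50409.6 in the knockouts and from 34483 to 48338 in the floxed controls. Of these, 2 of 11 tested (Lum and Pi16) had an r of at least 0.7, against 3.75% of all tested genes. The progenitor sum too was lowest in floxed control 1. Endothelial markers varied by 1.36 times, from 9578 to 11290.0 in the knockouts and from 8316 to 9610 in the floxed controls, and macrophage markers by 3.12 times, from 2656 to 4761 in the knockouts and from 1526 to 2939 in the floxed controls. Both sums were also lowest in floxed control 1. Of the 9 tested macrophage markers all 9 were higher in the knockouts, against 50.6% of all tested genes, and 0 were called (limma adjusted p of at least 0.746). An unadjusted p under 0.05 was found for 5 of the 9, against 6.16% of all tested genes. Of the 10 endothelial markers 8 were higher in the knockouts, against the same 50.6%, and 0 were called (limma adjusted p of at least 0.746). Of these 8, 4 had an unadjusted p under 0.05 (Pecam1, Flt1, Vwf and Cldn5), against the same 6.16%. Genes of a list share libraries, so these counts are not of independent genes. Mural cell markers varied by 1.42 times in sum, from 15681 to 17544 in the knockouts and from 12375 to 15629 in the floxed controls. The groups missed overlapping by a narrow margin, and they do not overlap in 2.75% of all tested genes. Rgs5, the most abundant of these markers, did overlap, at 9602 to 11925 in the knockouts and 8472 to 10994 in the floxed controls. Among the mural markers 0 of 6 were called. An r of at least 0.7 with the 4 transcripts was reached by 2 of 10 endothelial markers, Tek (0.856) and Kdr (0.823). It was also reached by 1 of 6 mural cell markers, Notch3 (0.796), and 1 of 9 tested macrophage markers, Csf1r (0.703). The share over all tested genes was 3.75%. Tendon markers varied by 1.85 times in sum, Schwann cell markers by 1.60 and red cell markers by 4.78 times, with median r of -0.01, 0.03 and 0.34. The median r was 0.54 for progenitor, 0.21 for endothelial, 0.07 for mural and 0.28 for macrophage markers, against -0.02 over all tested genes. Neutrophil markers, all below the filter, varied by 52.8 times and summed to 6.31 to 56.6 in the knockouts and 1.07 to 16.5 in the floxed controls. The 1.07, in floxed control 1, is 1 read of S100a8, so this ratio rests on that read.

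Slow and oxidative fibre markers varied by 11.4 times in sum, from 5401 to 61441 in the knockouts and from 5669 to 20457 in the floxed controls, and their median r was 0.19. Myh2, the myosin of fast oxidative fibres and the leading gene of that sum, was highest in knockout 7 (59055), then in floxed control 1 (18567) and floxed control 3 (18357), which were the lowest and one of the 2 highest for fat transcripts. The 6 fast glycolytic markers had a median r of -0.56. The part of these other cells and fibres in the fat transcript levels was not tested.

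**Figure D5:**
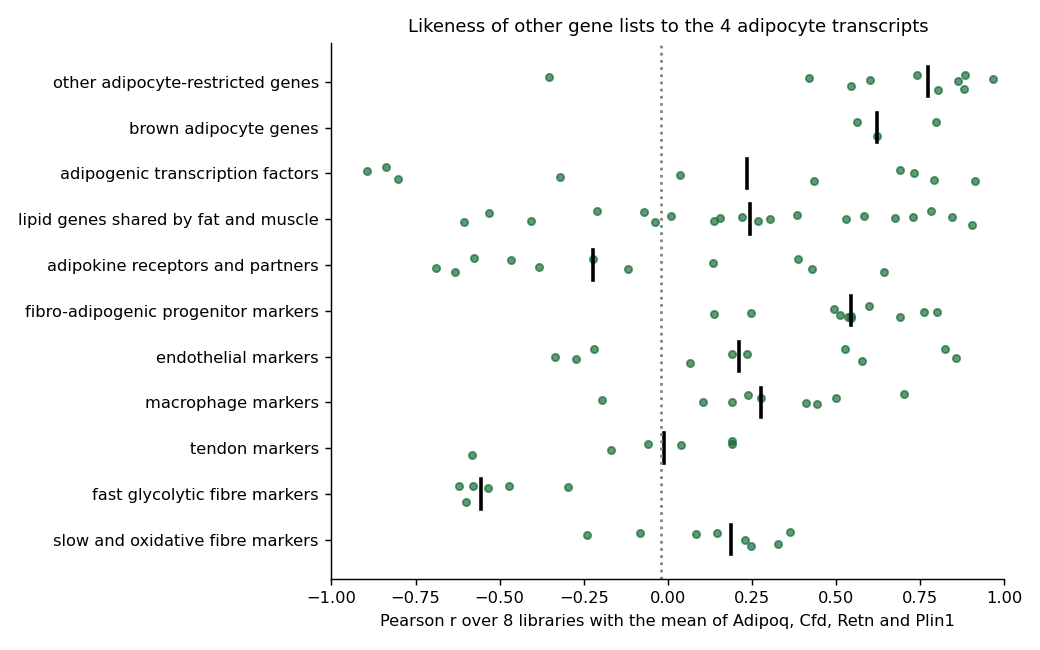
Pearson r over 8 libraries (x axis) of each tested gene with the mean of Adipoq, Cfd, Retn and Plin1, by gene list, with black bars at list medians and a dotted line at the median of all tested genes (-0.02). Other adipocyte-restricted genes have the highest median (0.77) and fast glycolytic fibre markers the lowest (-0.56).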

How the data were processed

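Per the labels' protocols, RNA was isolated from tissue by a Norgen Biotek kit and converted to libraries by TruSeq Stranded chemistry. Tools listed in the submitters' processing notes are STAR, HTSeq, cutadapt, FastQC and DESeq2, and the build is GRCm38. No version, annotation, filter or strand setting was given in the sources used here. Each of the authors' log2 values is, judging from the numbers, log2(n + 1) of a read count over its library's size factor, not corrected for gene length. Undoing the log gave whole reads, within 0.1 read, for 100% of values up to 200 reads. Reads on genes were 28659633 to 40977866 per library.

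Groups follow the titles. The 13141 genes averaging 10 or more normalized counts were fitted in limma 3.58.1 (R 4.3.3) with a variance trend, adjusting p by Benjamini-Hochberg over all of them. Single genes and correlations were tested exactly and two-sided over 70 assignments of mice or 40320 pairings. After centring by genotype the same pairings give only an approximate p. Positions and exon lengths came from GENCODE on GRCm38, promoters from RefSeq. Alternatives were other pseudocounts, filters, scalings and covariates, voom, a replicate block, and leaving out each mouse.

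The 6 transcripts and 18 gene lists (158 entries, all matched, 1 by an older symbol) were chosen with earlier results of these data known. Genes named by rule were the 6 transcripts, Acot2, each list's called genes or else its 3 most abundant and the 2 with the smallest p, and the 5 most like the transcripts. Those with an r past 0.7 in either direction are named too, and of the lists of other cell types and fibres, which are given by their sums, only some of the rule's genes.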

Additional observations from a re-analysis of the deposited data

Results flagged for a closer look

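Among 44 groups of 4 mice, for Acot2, the 5 detected adipocyte transcripts and the sums of 16 other lists, 3 had a mouse far from the other 3, where chance gives about 1 in 20. None was an adipocyte transcript. The sum of fibro-adipogenic progenitor markers in knockout 6 was 50409.6 normalized counts, well above the other knockouts, in a mouse whose 6 adipocyte transcripts summed to 561. Gsn, the most abundant gene of that sum, was at 34583 normalized counts in knockout 6 and at 28254 to 29513 in the other knockouts. The sum of endothelial markers in knockout 5 was 11290 normalized counts, above the other knockouts. The sum of red cell markers in knockout 5 was 1899.2 normalized counts, below the other knockouts, and the 6 adipocyte transcripts summed to 1227 in that mouse.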

How the results depend on the processing

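The titles number the mice 1 to 8, but the table's columns number them 1 to 4 in each group. Deviations of same-numbered mice from their group means correlated at r between -0.162 and 0.281 across 13141 genes, which are not independent, and 2 of 4 pairs were over 0.1, so the numbers were not taken to pair the mice. With them as a replicate block, chosen after seeing the data, 0 genes were called and 931 had an unadjusted p under 0.05. Pseudocounts of 0.5 and 5, no filter, a filter at 50, 2 rescalings, the mouse number range as a covariate and each mouse left out in turn were run, and voom on recovered reads was added after seeing the data. edgeR and DESeq2 were planned but not run, and voom took their place. Retn and Cidea fall below the filter at 50. Genes at an adjusted p under 0.05 numbered 0 throughout except 1, Acot2, without the filter (difference -2.30, limma adjusted p = 0.00421, in a range of 0.00421 to 0.42 over these settings and 0.068 to 0.451 with a mouse left out), and 0 with each mouse left out. With a same upper quartile per library, 435 of the genes at an unadjusted p under 0.05 were higher and 369 lower. The number of genes at an unadjusted p under 0.05 was 693 to 1362 over the settings that keep all mice and 368 to 2201 with a mouse left out. Plin1 changed sign with equal library totals (0.010) and with voom (0.084). With each mouse left out, the difference ranged from -0.48 to 0.81 for Adipoq, -0.19 to 0.91 for Cfd, -1.10 to 0.31 for Retn, -0.52 to 0.59 for Plin1, -0.43 to 0.61 for Lep, 0.043 to 0.72 for Cidea and -2.49 to -2.03 for Acot2. No adipocyte transcript was called in any of these settings, and the cause of the sign changes was not tested. Of the 6 pairs among Adipoq, Cfd, Retn and Plin1, 5 or 6 passed by Pearson's r in each setting run for them. These were both pseudocounts, both rescalings, centring by genotype, the 6 mice of 1 number range, and each mouse left out. By Spearman's rho no pair passed in the 6 mice of 1 number range. Lep rests on 11 reads, and Retn on 2 in the lowest libraries.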

Other observations

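With the mean of Adipoq, Cfd, Retn and Plin1 alone, without Cidea, a choice made after seeing the data, the 5 most like genes were Cyp2e1 (r = 0.982), B3galt2 (0.982), Rarres2 (0.974), Cidec (0.966) and Ppp1r27 (0.961), so 3 genes were among the 5 under both. Ppp1r27, a regulatory subunit gene of protein phosphatase, was at 846, 294, 858 and 316 normalized counts in knockouts 5 to 8, against 163, 757, 899 and 705 in floxed controls 1 to 4.

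Zic1, a developmental factor that also marks brown fat, was at 1.80, 1.09, 29.8 and 2.42 normalized counts in knockouts 5 to 8, against 25.7, 1.74, 7.30 and 8.89 in floxed controls 1 to 4, and was named after its values were seen. It was highest in knockout 7 and floxed control 1, the mice with the highest and the lowest Adipoq.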
